A study of Macaca mulatta with 161 samples.

Results

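Bone morphogenetic protein (BMP) signalling genes were followed in single inner cells of rhesus monkey (Macaca mulatta) blastocysts. The members are the ligands BMP2 and BMP4, the receptors BMPR1A and BMPR2, the signal carriers SMAD1 and SMAD5, the target genes ID1, ID2 and ID3, and BAMBI. They were chosen by name as a pathway, and 10 of 10 have a row among the 16049 gene symbols of the table. All 10 had a mean of at least 1 FPKM (a read count divided by transcript length and by the total of the cell, which makes levels comparable between genes) over all cells, which 9781 genes reached. Each symbol matched 1 rhesus gene in the Ensembl name table and in the RefSeq table.

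BMPs are secreted ligands of the TGF-beta superfamily. They bind a complex of type I receptors, such as BMPR1A, and type II receptors, such as BMPR2, and the activated type I receptor phosphorylates SMAD1 and SMAD5, which enter the nucleus with SMAD4 and switch on targets. The ID genes are the classic direct targets and encode inhibitors of basic helix-loop-helix transcription factors, while BAMBI, also a target, encodes a pseudoreceptor without kinase activity that dampens the signal. In the mammalian blastocyst the inner cells separate into epiblast, where the pluripotency factor NANOG is expressed, and primitive endoderm, where the endoderm factor SOX17 is expressed.

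The study profiled 161 inner cells of embryos from in vitro fertilisation, each cell as its own library. There were 44 cells from the early blastocyst (about embryonic day 5, with a small cavity), 39 from the middle blastocyst (about day 5.5), 52 from the late blastocyst (about day 6, cavity fully expanded) and 26 from the hatching blastocyst (about day 7, described in the protocol as out of the zona pellucida). All embryos came from hormone-stimulated females and were cultured in the same medium with serum, and there was no treatment or genetic change in any group. Inner cells were those without fluorescence after the outer cells of the embryo had been stained with the dye PKH26. No label ties a cell to an embryo, an animal or a culture, so each stage counts as 1 sample. Cells are not replicates of a stage, no test between stages could be made, and every value here describes these cells.

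Whole reads could be recovered from the steps of the FPKM values for most genes, with medians of 10.1, 11.6, 10.1 and 10.6 M (mega) reads per cell in the early, middle, late and hatching stages and a range of 2.89 to 18.2 M over all cells. In the median cell an FPKM of 1 stood for 14.5 reads of ID1 and 80.8 reads of SMAD5, the lowest and highest among the members, so a gene is called detected here at an FPKM of at least 1. Of 10 epiblast markers, 7 or 8 were detected in at least 50% of the cells of each stage. Of 10 trophectoderm (outer layer) markers with a row, 5 early, 6 middle, 7 late and 7 hatching were detected as widely. Their median sums were 2230, 3477, 3577 and 3288 FPKM, beside 2356, 2110, 3001 and 6068 FPKM for the epiblast markers. Epiblast markers therefore do not set these cells apart from trophectoderm by themselves. The 6 markers of cumulus and granulosa cells summed to at most 12.4 FPKM in any cell.

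A pair of cells stood apart, and both were singled out after their values were seen. The early cell titled E9 had the lowest epiblast marker sum of the 44 early cells (271 FPKM, against 1037 to 4332 in the others). Its trophectoderm marker sum was also the lowest (438 FPKM, against 616 to 7814), as was its number of detected genes (5873). It also had the highest early BMP2, SMAD5, ID1, ID2 and BAMBI. The late cell titled L13 had a trophectoderm (outer layer) marker sum of 29997 FPKM, against 1639 to 8298 FPKM in the other 51 late cells. It also had the highest late SMAD1 and BMPR2, and the fewest recovered reads of all cells (2.89 M). Results that rest on either cell are given with and without it.

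Cells were also divided by whether SOX17 or NANOG had the higher log2(FPKM + 1), since NANOG marks epiblast and SOX17 primitive endoderm. These are ranges of 2 measured genes and not cell types. No early and no middle cell had SOX17 above NANOG. In the late stage 19 cells had SOX17 above NANOG and 33 had NANOG at or above SOX17, and 7 of these 52 lay within 2 log2 units of equal levels. In the hatching stage 7 cells had SOX17 above NANOG and 19 had NANOG above SOX17. No hatching cell lay near the cut, as the SOX17 minus NANOG difference was 5.08 to 7.37 log2 units in the 7 cells and -9.42 to -7.15 in the 19.

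The 12 primitive endoderm markers with a row summed to between 19370 and 83360 FPKM in the 7 hatching SOX17-above cells, against 2.07 to 366 FPKM in the 19 hatching NANOG-above cells. The sums in SOX17-above cells are mostly APOA1, with a mean log2 level of 15.10 there, against 9.07 for the next marker, RSPO3. All 12 markers had a mean log2 level higher by at least 1 in SOX17-above cells. SOX17, which defined the cut, is 1 of them. The 10 trophectoderm markers with a row summed to 2894 to 6848 FPKM in the hatching SOX17-above cells and 1088 to 8570 FPKM in the hatching NANOG-above cells. These sums overlap, but single markers differed: 3 of the 10 had a mean log2 level higher by at least 1 in SOX17-above cells (CDX2 with 5.16 and 2.58, GATA3 with 4.08 and 0.07, KRT19 with 10.47 and 7.93 in SOX17-above and NANOG-above cells) and 2 a lower one (KRT7 with 0.55 and 6.40, SLC7A2 with 2.83 and 4.10). The hatching SOX17-above cells had a median of 8.34 M recovered reads and 5680 detected genes, against 12.1 M and 6940 in the NANOG-above cells. All 7 carry title numbers 1 to 18, together with 5 NANOG-above cells, while the other 14 hatching cells are numbered 22 to 47. Late cells were likewise divided at a gap in their numbers (3 to 22 and 25 to 61), which leaves out 5 late cells with another title prefix, HS. The labels do not say what the numbers or the prefix stand for. The part of depth, of the trophectoderm markers and of these number ranges in the differences between ranges was not tested.

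**Figure D1:**
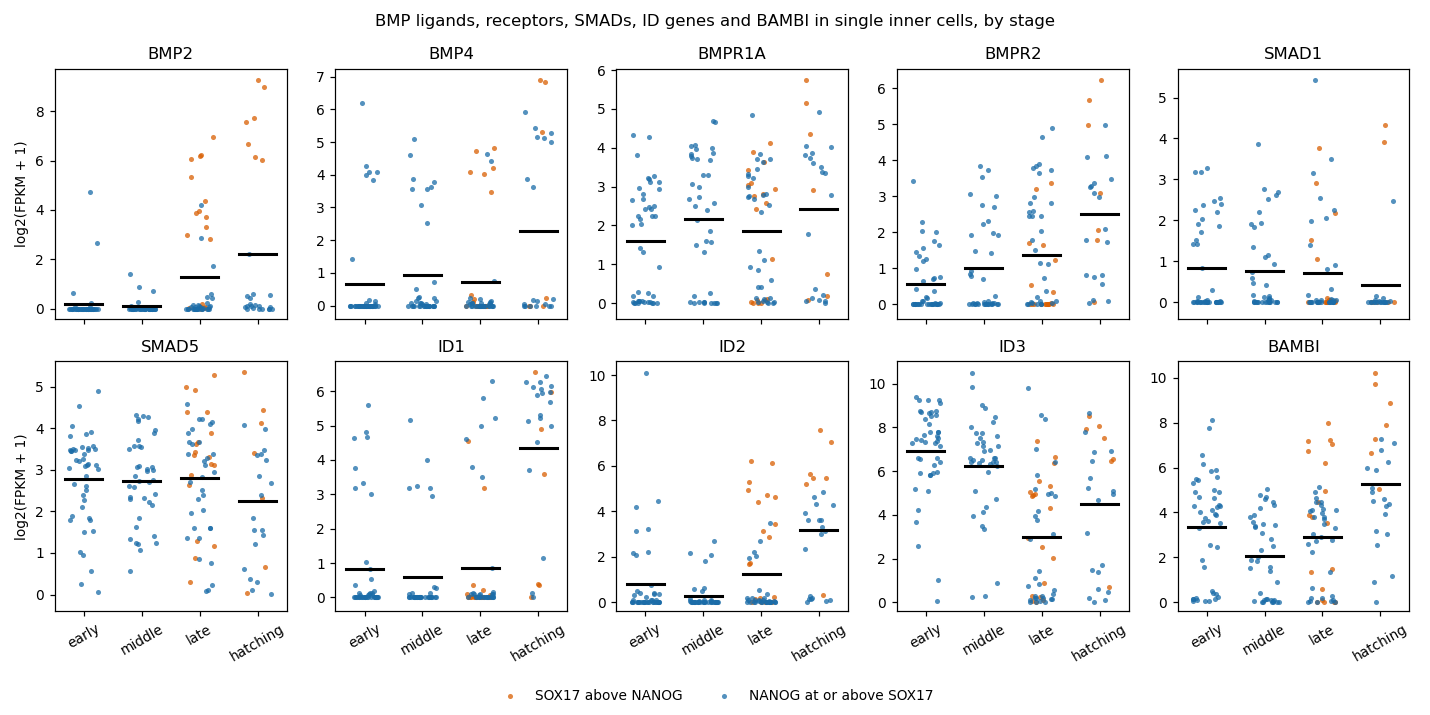
Level of each gene as log2(FPKM + 1) in every cell (points) by stage, with the stage mean as a black bar. Orange points are cells with SOX17 above NANOG and blue points cells with NANOG at or above SOX17. ID3 is high in nearly all early and middle cells, ID1 in most hatching cells, and high BMP2 is found mostly in the orange cells of the late and hatching stages.

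Between the early and the hatching stage the ligands, the type II receptor BMPR2, ID1, ID2 and BAMBI were higher and ID3 was lower. Mean log2(FPKM + 1) in hatching minus early cells was 3.50 for ID1, 2.36 for ID2, 2.02 for BMP2, 1.94 for BMPR2, 1.92 for BAMBI, 1.64 for BMP4 and -2.42 for ID3. Thus 6 of 10 members were higher by at least 1 log2 unit, as were 11.3% of all 9781 genes, and 1 of 10 was lower by as much, as were 16.2% of all genes. The median difference over the members was 1.78, beside -0.12 over all genes. For ID1, ID2 and BMPR2 the difference exceeded the pooled SD between cells (2.03, 2.11 and 1.42), and for the other 4 it did not. BMP2 and BMP4 were detected in a minority of cells of each stage, and with medians over cells in place of means their hatching minus early differences were 0.18 and 0.19, below 1 log2 unit. No early cell had SOX17 above NANOG. In hatching NANOG-above minus early cells BMP2 (0.08) and BAMBI (0.94) were below 1 log2 unit, while ID1, ID2, BMPR2, BMP4 and ID3 stayed past it.

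Most of the higher levels were seen between the late and the hatching stage, while the lower ID3 was seen from the late stage on. In hatching minus late cells ID1, BAMBI, ID2, BMP4, ID3 and BMPR2, 6 members, were higher by at least 1 log2 unit (7.26% of all genes) and 0 were lower (9.87% of all genes). In middle minus early cells 0 members were higher (3.06% of all genes) and only BAMBI was lower (3.61%), by -1.32. In late minus middle cells BMP2 was higher by 1.21 (3.95% of all genes) and ID3 was lower, at -3.27 (5.82%).

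By mean FPKM, which is per length and so comparable between genes, ID3 was the highest member in early (221 FPKM), middle (181) and late cells (50.9), and BAMBI was the highest in hatching cells (147 FPKM, with ID3 at 91.3). BMP2 was the lowest member in early and middle cells, at 0.712 and 0.0901 FPKM (0.143 FPKM in early cells without E9), and it came after BAMBI and ID3 in hatching cells at 67.1 FPKM. SMAD1 was the lowest in late and hatching cells, at 2.02 and 1.47 FPKM (1.23 FPKM in late cells without L13).

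BMP2, a ligand of the BMP2/BMP4 subgroup, was nearly absent in the first stages and high in a minority of late and hatching cells. It was detected in 2 of 44 early, 1 of 39 middle, 15 of 52 late and 8 of 26 hatching cells, or 4.55%, 2.56%, 28.8% and 30.8% (exact Clopper-Pearson 95% intervals 0.555% to 15.5%, 0.0649% to 13.5%, 17.1% to 43.1% and 14.3% to 51.8%). Among the cells that had it, the median was 14.3 FPKM in late and 143.5 FPKM in hatching cells. One of the 2 early cells with BMP2 was E9, at 25.2 FPKM.

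The cells with BMP2 were mostly those with SOX17 above NANOG. In the hatching stage the 7 SOX17-above cells had 63.5, 68.8, 101, 186, 211, 496 and 612 FPKM of BMP2, against 0 to 3.66 FPKM (median 0.0665) in the 19 NANOG-above cells. The ranges did not overlap, and 1.41% of all genes showed such a gap with SOX17-above cells on top. Mean log2 levels were 7.47 and 0.27 (SD 1.29 and 0.51), a difference of 7.20. With the lower title numbers alone, 7 SOX17-above against 5 NANOG-above cells, the difference was 6.65.

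In the late stage BMP2 was detected in 12 of 19 SOX17-above cells, with a median of 8.79 FPKM and a maximum of 124 FPKM, and in 3 of 33 NANOG-above cells, with a maximum of 17.4 FPKM. The late ranges overlapped, since 7 SOX17-above cells had no detected BMP2. Mean log2 levels were 2.96 and 0.34 (SD 2.53 and 0.90), a difference of 2.61, and it was 1.94 in the lower and 2.70 in the higher title numbers. BMP2 in SOX17-above cells was also higher in the hatching than in the late stage, by 4.51 log2 units (SD 1.29 and 2.53).

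In NANOG-above cells BMP2 hardly differed between stages, at 0.08 for hatching minus early and -0.07 for hatching minus late. The hatching minus early difference of 2.02 was thus carried by the SOX17-above cells. The hatching cells with higher title numbers, which hold no SOX17-above cell, had BMP2 at a mean of 0.08, and hatching minus late within those numbers was -1.31.

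BMP4, the other ligand of the subgroup, was not tied to the SOX17-above cells in the same way. It was detected in 7 of 44 early, 9 of 39 middle, 8 of 52 late and 11 of 26 hatching cells, with medians of 16.1, 11.3, 19.02 and 37.8 FPKM in the cells that had it. Hatching cells were thus above each earlier stage in both the share of cells and the level. In hatching minus late cells the mean log2 difference was 1.57, and it was 1.77 within NANOG-above cells, 1.22 in the lower and 1.86 in the higher title numbers.

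In the hatching stage BMP4 was found in 3 of 7 SOX17-above cells, at 38.3, 114 and 119 FPKM, and in 8 of 19 NANOG-above cells, with a maximum of 59.7 FPKM. The shares were 42.9% (9.90% to 81.6%) and 42.1% (20.3% to 66.5%), and the difference of mean log2 levels, 0.65, was below the SD of 3.40 and 2.52. In late cells it was found in 6 of 19 SOX17-above and 2 of 33 NANOG-above cells, a difference of 1.04. That late difference was -0.25 in the lower title numbers.

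Cells with both ligands were found only on the SOX17-above side among these libraries, 4 of 19 in the late and 3 of 7 in the hatching stage. Among the 4 late cells, that titled HSL79 lay only 0.11 log2 units above the cut, with 67.9 FPKM of SOX17 and 63.0 FPKM of NANOG. Among hatching NANOG-above cells 8 had BMP4 without BMP2, 1 had BMP2 without BMP4, and 10 had neither. In early and middle cells 0 of 44 and 0 of 39 had both, which allows shares of up to 8.04% and 9.03% by the exact interval.

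BMPR1A, the type I receptor, was present throughout and differed little. It was detected in 25 of 44 early, 27 of 39 middle, 31 of 52 late and 16 of 26 hatching cells, with mean log2 levels of 1.59, 2.16, 1.87 and 2.42 (SD 1.42, 1.64, 1.54 and 1.95). No neighbouring stages differed by as much as the SD. Between SOX17-above and NANOG-above cells the difference was 0.06 in the late and 0.44 in the hatching stage.

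BMPR2, the type II receptor, was higher at each later stage. Its mean log2 levels were 0.57, 1.02, 1.36 and 2.51 (SD 0.83, 1.28, 1.53 and 1.82) in early, middle, late and hatching cells, and it was detected in 11 of 44, 14 of 39, 25 of 52 and 18 of 26 cells. Neighbouring stages in this order differed by less than their SD. The order of early below hatching held within NANOG-above cells, with a difference of 1.60.

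The mean of BMPR2 was higher on the NANOG side in late cells and on the SOX17 side in hatching cells, by less than the pooled SD (1.37 and 1.96) in each. Late SOX17-above cells had it in 5 of 19 (median 0 FPKM), against 20 of 33 NANOG-above cells (median 2.47 FPKM), with mean log2 levels of 0.63 and 1.78 and a difference of -1.15. Hatching SOX17-above cells had it in 6 of 7 (median 7.45 FPKM, highest 74.2), against 12 of 19 NANOG-above cells (median 3.25 FPKM, highest 30.3), a difference of 1.23. Without L13, the late NANOG-above mean was 1.68. The difference between the stages in this contrast was not tested. Both receptors were detected together in 6 early, 10 middle, 18 late and 12 hatching cells.

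SMAD5, which carries the signal to the nucleus, was the most widely detected member after ID3 in early cells and the most widely detected in middle and late cells. It reached an FPKM of 1 in 40 of 44 early, 38 of 39 middle, 45 of 52 late and 19 of 26 hatching cells, with mean log2 levels of 2.78, 2.74, 2.81 and 2.26 (SD 1.10, 1.02, 1.37 and 1.56). The means of the first 3 stages lay within 0.1 log2 unit of each other, and the hatching mean was lower by less than the SD. SOX17-above minus NANOG-above was 0.59 in the late and 0.88 in the hatching stage, each below the SD. SMAD1, its close relative, was low, with detection in 16, 12, 13 and 3 cells and mean log2 levels of 0.84, 0.77, 0.70 and 0.43. In hatching cells SMAD1 was found in 2 of 7 SOX17-above cells, at 14.1 and 19.1 FPKM, and in 1 of 19 NANOG-above cells, at 4.56 FPKM. Without L13, the highest late SMAD1 was 12.6 FPKM, against 42.3 with it.

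ID3 was the most widely detected ID gene in early, middle and late cells. In hatching cells ID1 and ID3 were close, with 21 and 20 of 26 cells. ID3 was detected in 43 of 44 early and 36 of 39 middle cells, in 30 of 52 late and in 20 of 26 hatching cells. Its lowest, median and highest values were 0.0487, 166 and 666 FPKM in early, 0.181, 95.02 and 1453 in middle, 0, 5.65 and 893 in late and 0, 34.8 and 400 in hatching cells. Mean log2 levels were 6.93, 6.26, 2.99 and 4.51 (SD 2.09, 2.32, 2.82 and 3.07), so late cells were lower than middle cells by more than the SD. All stages overlapped. Between SOX17-above and NANOG-above cells ID3 had mean log2 levels of 6.54 and 3.76 in the hatching stage and 3.39 and 2.75 in the late stage, differences of 2.77 and 0.64 that are below the pooled SD of 2.80 and 2.77.

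ID3 in the late stage depended on the title numbers. The 18 late cells with lower numbers had a mean of 1.16 and detection in 4 cells, and the 29 with higher numbers had a mean of 4.06 and detection in 22. Late minus middle was -4.90 in the lower and -2.35 in the higher numbers. Hatching minus late was 4.29 with the lower numbers of both stages and -0.36 with the higher numbers of both. The numbers do not pair cells across stages, so other matchings of the ranges are equally possible. The part of the numbers in this was not tested.

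ID1 was the member that most marked the hatching stage. It was detected in 9 of 44 early, 6 of 39 middle, 9 of 52 late and 21 of 26 hatching cells, or 20.5% (9.80% to 35.3%), 15.4% (5.86% to 30.5%), 17.3% (8.23% to 30.3%) and 80.8% (60.6% to 93.4%). The median cell had 0 FPKM in the first 3 stages and 37.3 FPKM in the hatching stage, and the highest cells had 47.04 (in E9, and 27.1 without it), 35.02, 77.8 and 92.5 FPKM. The mean log2 levels of the first 3 stages, 0.83, 0.58 and 0.85, differed by less than their SD, and the hatching mean of 4.34 (SD 2.36) was above them by more than it. The hatching minus late difference of 3.48 was 2.76 in the lower and 4.24 in the higher title numbers.

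Hatching ID1 was found on both sides of the SOX17 and NANOG cut and, over the whole stage, was more frequent on the NANOG side. It was detected in 4 of 7 SOX17-above cells, at 11, 28.6, 61.9 and 92.5 FPKM, and in 17 of 19 NANOG-above cells, with a median of 50.9 FPKM over all 19. Mean log2 levels were 3.10 and 4.79 (SD 2.83 and 2.07), a difference of -1.69 that is below the SD of either side. With the lower title numbers alone it was -0.17. ID1 was detected in all 14 cells with higher numbers, which are all NANOG-above cells. It was detected in 7 of the 12 cells with lower numbers, a share close to that of the SOX17-above cells. The higher frequency on the NANOG side thus went with the higher numbers. Within NANOG-above cells ID1 was higher by 3.96 in hatching than in early cells and by 3.70 than in late cells, and within SOX17-above cells it was higher by 2.66 in hatching than in late cells.

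ID2 was higher on the SOX17 side at both later stages. It was detected in 8 of 44 early, 4 of 39 middle, 17 of 52 late and 18 of 26 hatching cells. Late SOX17-above cells had a median of 6.26 and a highest value of 72.8 FPKM, against a median of 0.0357 and a highest of 10.0 FPKM in late NANOG-above cells, with mean log2 levels of 2.62 and 0.43 (SD 2.33 and 0.91). These late groups overlapped, with 7 of 19 SOX17-above cells above every NANOG-above cell. Hatching SOX17-above cells had 0.258, 35.3, 42.9, 42.9, 49.2, 132 and 191 FPKM, against 0 to 28.2 FPKM (median 7.87) in hatching NANOG-above cells. Thus 6 of 7 hatching SOX17-above cells lay above every NANOG-above cell, and the difference of mean log2 levels was 2.85. The late difference of 2.18 was 0.96 in the lower and 3.22 in the higher title numbers.

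In the early stage E9 had 1100 FPKM of ID2, and the highest of the other 43 early cells had 21.2 FPKM. As the log2 of the mean FPKM, ID2 was therefore not higher in hatching than in early cells, at -0.06, against 2.36 for the mean of log2 values. Within NANOG-above cells ID2 was also higher in hatching than in late cells, by 1.96.

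**Figure D2:**
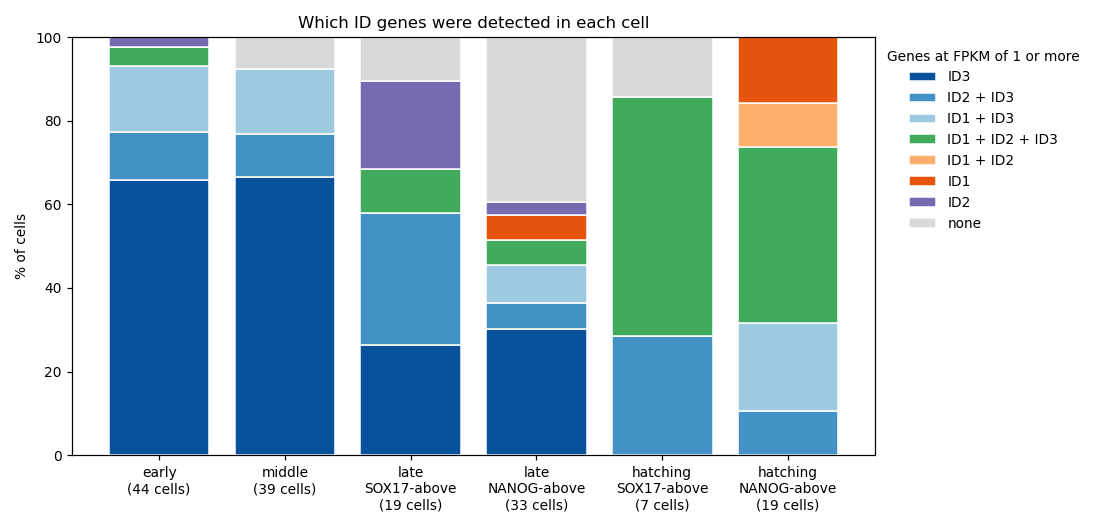
Share of cells in each group by which of ID1, ID2 and ID3 reached an FPKM of 1. Detection of ID3 alone is the most common pattern in early (29 of 44) and middle cells (26 of 39). Cells with all 3 genes or with ID1 detected make up most of the hatching groups.

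Cell by cell, ID3 alone was detected in 29 of 44 early, 26 of 39 middle, 15 of 52 late and 0 of 26 hatching cells. A gene not detected in a library may still be present in the cell. All 3 ID genes were detected together in 2 early, 0 middle, 4 late and 12 hatching cells. None of the 3 was detected in 0 early, 3 middle, 15 late and 1 hatching cell. The late stage thus had the most cells without a detected ID gene, 13 of its 33 NANOG-above and 2 of its 19 SOX17-above cells. Of these 15 cells, 11 had lower title numbers.

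ID3 was most often the highest ID gene in early, middle and late cells, and was about level with ID1 in hatching cells. ID3 was the highest ID gene in 42 of 44 early cells and in 36 of 36 middle cells with a summed FPKM of at least 1. In the 37 late cells with such a sum ID3 was highest in 24, ID2 in 8 and ID1 in 5. In the 26 hatching cells ID3 was highest in 13, ID1 in 12 and ID2 in 1. Among hatching cells ID3 was highest in 6 of 7 SOX17-above cells and ID2 in the other. ID1 was highest in 12 and ID3 in 7 of 19 NANOG-above cells. The 6 include the cell H13, with only 0.645 FPKM of ID3, 0.302 of ID1 and 0.258 of ID2, each below detection. Without H13, ID3 and ID1 would tie over the hatching cells. The median share of ID3 in the summed ID level was 99.8%, nearly 100% (99.96%), 83.0% and 45.4% in early, middle, late and hatching cells.

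BAMBI, the pseudoreceptor, was detected in 32 of 44 early, 24 of 39 middle, 36 of 52 late and 24 of 26 hatching cells. Its median was 13.9, 2.71, 9.54 and 32.4 FPKM and its highest value 279 (in E9, and 213 without it), 32.2, 253 and 1200 FPKM. Mean log2 levels were 3.37, 2.05, 2.93 and 5.29 (SD 2.33, 1.78, 2.32 and 2.58), and the hatching minus late difference of 2.36 lay between the SDs of these stages.

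Hatching SOX17-above cells had the highest BAMBI. They had 31.8, 98.4, 155, 239, 470, 858 and 1200 FPKM, against 0 to 155 FPKM (median 21.8) in the 19 NANOG-above cells. The groups overlapped, with 4 of 7 SOX17-above cells above every NANOG-above cell. The difference of mean log2 levels was 3.66, and 4.11 with the lower title numbers alone. In late cells it was 0.91, at 2.09 in the higher and -0.75 in the lower title numbers, so no single direction held there. Within NANOG-above cells BAMBI was higher by 1.71 in hatching than in late cells, and by 0.94 than in early cells.

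**Figure D3:**
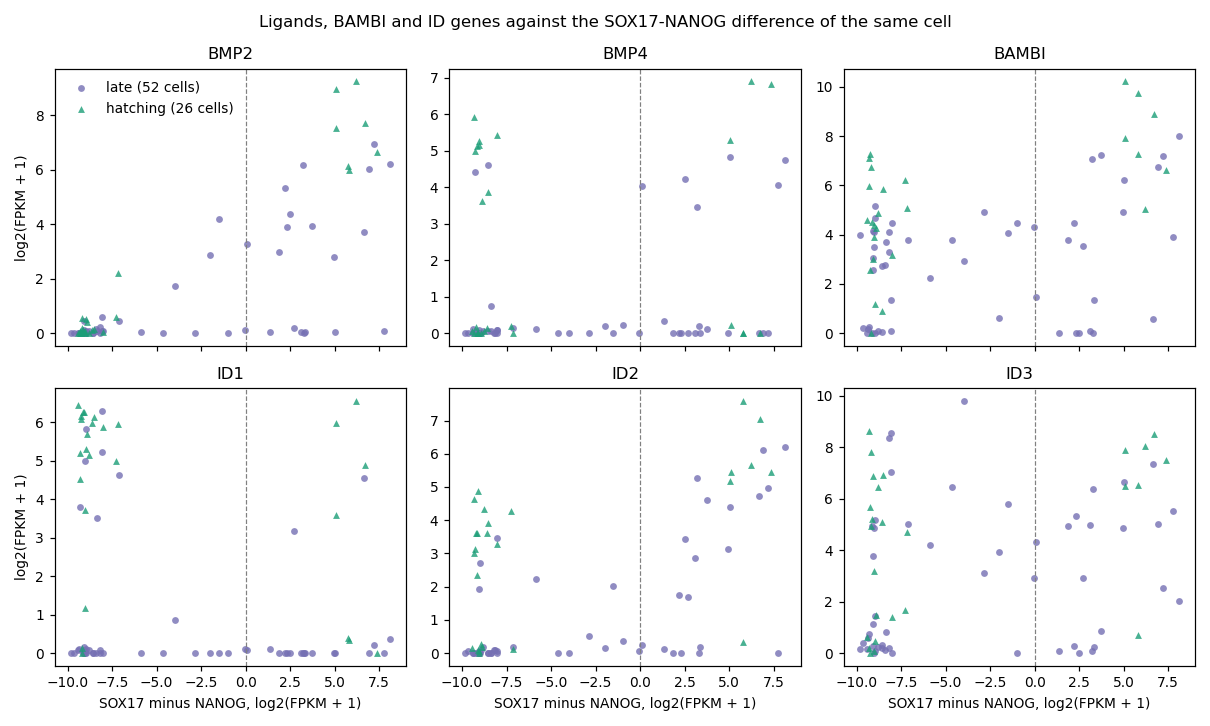
Level of the ligands, BAMBI and the ID genes, as log2(FPKM + 1), against the SOX17 minus NANOG difference of the same cell in late cells (circles) and hatching cells (triangles). The dashed line marks equal SOX17 and NANOG. All 7 hatching cells right of the line have high BMP2, 6 of them have high ID2, and hatching BMP4 and ID1 are found on both sides.

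Counted over the members, hatching SOX17-above minus NANOG-above cells had 6 members higher by at least 1 log2 unit, beside 14.2% of all genes, and 1 lower, beside 33.7% of all genes. The median difference was 1.13 for the members and -0.45 for all genes. In late cells 3 members were higher (7.69% of all genes) and 1 lower (7.89%), with medians of 0.62 and -0.01. In hatching NANOG-above minus late NANOG-above cells 5 were higher (9.41% of all genes) and 0 lower (8.02%).

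**Figure D4:**
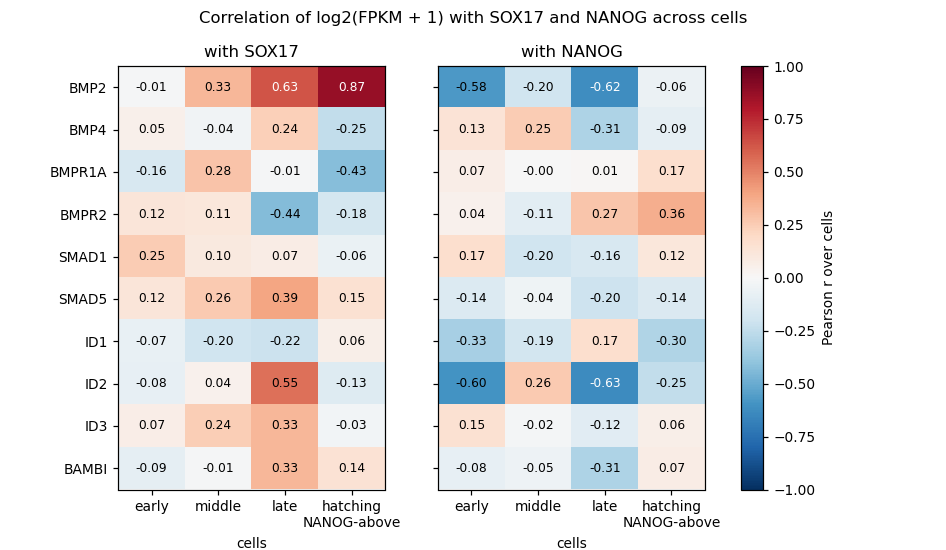
Pearson r of each gene with SOX17 (left) and NANOG (right), on log2(FPKM + 1), over the 44 early, 39 middle and 52 late cells and the 19 hatching cells with NANOG above SOX17. BMP2 and ID2 have the strongest positive r with SOX17 over all late cells, and their early r with NANOG rests on cell E9.

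Over the 52 late cells BMP2 had a Pearson r of 0.63 with SOX17 and -0.62 with NANOG, and ID2 had 0.55 and -0.63. BMPR2 had -0.44 with SOX17 and 0.27 with NANOG. Late cells lie on both sides of the SOX17 and NANOG cut, and within the sides most of these values were closer to 0. In the 19 SOX17-above and the 33 NANOG-above cells the r with SOX17 was 0.15 and 0.62 for BMP2, 0.37 and 0.08 for ID2, and -0.11 and -0.30 for BMPR2. The r with NANOG was -0.26 and -0.21 for BMP2, -0.52 and -0.11 for ID2, and -0.35 and -0.05 for BMPR2. The NANOG-above values with NANOG depended on L13. In the 32 NANOG-above cells without it they were -0.42 for BMP2, -0.20 for ID2 and 0.38 for BMPR2. Of the 33 NANOG-above cells 3 had detected BMP2. BMP2 and ID2 were also related to each other, with r = 0.69 over the late cells and 0.62 within the 19 late SOX17-above cells. Within those 19 cells ID2 and BAMBI had r = 0.67. The points are single cells that share library type and amplification and may share embryos, so these values are descriptions.

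Hatching cells fall into separate groups by SOX17 and NANOG, and r was therefore taken within the 19 NANOG-above cells. BMP2 had r = 0.87 with SOX17 there, but BMP2 reached an FPKM of 1 in only 1 of the 19 cells, and the highest values were 3.66 FPKM of BMP2 and 2.39 FPKM of SOX17. ID2 and ID3 had r = 0.51, while ID1, ID2, ID3 and BAMBI had r between -0.30 and 0.14 with SOX17 or NANOG. In early cells the r of NANOG with BMP2 was -0.58 and with ID2 -0.60, and without E9 they were 0.04 and -0.14.

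Ligand and target transcripts were also set side by side in the same cell, with no test. In late cells ID2 was detected in 10 of 15 cells with BMP2 and in 7 of 37 without, with mean log2 levels of 2.84 and 0.58, and ID1 in 1 of 15 and 8 of 37. Most late cells with BMP2 are SOX17-above cells, as given above. ID2 had mean log2 levels of 2.45 in the 8 late cells with BMP4 and 1.01 in the 44 without. Of these 8 cells 6 are SOX17-above cells. Within late NANOG-above cells ID2 had 0 in the 2 cells with BMP4 and 0.46 in the 31 without. Among hatching NANOG-above cells ID1 was detected in 7 of 8 cells with BMP4 and in 10 of 11 without, with mean log2 levels of 4.15 and 5.26. ID3 had 2.64 with BMP4 and 4.58 without it, and BAMBI 5.21 and 3.65. Transcript in the same cell says nothing of protein or of ligand from neighbouring cells. The hatching SOX17-above cell titled H13 had 68.8 FPKM of BMP2 and none of the 3 ID genes detected.

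The rest of the pathway was read from a list of 68 other ligands, receptors, SMADs, inhibitors, convertases and targets, of which 56 have a row and 26 had a mean FPKM of at least 1. In hatching minus early cells 7 of 26 were higher and 6 lower by at least 1 log2 unit, beside 11.3% and 16.2% of all genes, with a median of 0.04, beside -0.12. Among ligands BMP6 was higher (1.17), and BMP7 was detected in 1 late and 2 hatching cells only. The type I receptor ACVR1 was higher (1.32), and BMPR1B was at 0 in every cell. Of the inhibitors inside the cell, SMAD7 (1.17) and SKIL (1.78) were higher. Of the secreted inhibitors, FST (1.54) and FSTL1 (2.27) were higher, while NOG was detected in 1 cell. The convertases FURIN (-2.10) and PCSK7 (-1.64), which cleave pro-ligands, were lower. Of the targets, TBX3 (-2.77), HEY1 (-1.35) and HAND1 (-1.28) were lower and DLX5 was higher (1.03).

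In hatching SOX17-above minus NANOG-above cells 9 of the 26 were higher and 5 lower, beside 14.2% and 33.7% of all genes, with a median of 0.55, beside -0.45. BMP6, another BMP ligand, had mean log2 levels of 4.29 and 0.02, and the type I receptor ACVR1 had 3.61 and 0.72. FURIN had 5.90 and 0.99, so that it was higher on the SOX17 side although lower in the stage as a whole. PCSK5 (1.07), SMURF2 (1.04), FST (1.44) and FSTL1 (1.65) were also higher. Of the targets, TBX3 had 6.19 and 0.23 and GATA3 4.08 and 0.07, while VENTX had 2.53 and 6.57 and DLX5 0.08 and 1.53. RGMB, a BMP co-receptor, had 0.17 and 3.19, and SMAD7 had 0.89 and 2.44. PCSK7 was lower (-1.01). The listed targets therefore did not share 1 direction.

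By Pearson r over all 161 cells, the genes most alike BMP2 included FOXA2 (0.84) and COL4A1 (0.82), and with stage means removed these were 0.81 and 0.79. FOXA2 and COL4A1 are on the primitive endoderm marker list. The genes most alike ID2 included BMP2 (0.63) and FN1 (0.61), and those most alike BAMBI included FN1 (0.49) and FRZB (0.48). ID1 was most alike PTPLA (0.64), IGFBP4 (0.62) and KCTD8 (0.61), which were 0.34, 0.30 and 0.42 with stage means removed. ID3 was most alike CADM1 (0.50), PDCD4 (0.48) and TP53I3 (0.48). For BMP4 no gene passed 0.4, and F3 (0.36), CRABP2 (0.34) and TTR (0.34) came first.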

How the data were processed

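The authors deposited FPKM values in 1 table with a column per cell, each of which matched a cell's title. Tools listed without a role or an order in the submitters' processing notes are DESeq2, HTSeq, TopHat2 2.1.0 and FastQC. For genome build and annotation, the entry is "not given in the sources used here". From these FPKM values log2(FPKM + 1) was computed, which understates the differences of low genes. A stage or range is described by the mean and SD over cells, differences are the first group's mean minus the second's, and shares of cells at an FPKM of at least 1 have exact Clopper-Pearson 95% intervals, which cover the counting error of cells only. PCR reads carry no molecular identifiers. Single cells were picked by hand, and no doublet caller was run. Whole reads were recovered from the value steps for 13814 of 13857 genes, which hold 74.6% to 88.4% of the FPKM of a cell, so depths are lower bounds. No embryo is named, so no test was made. Correlations in the hatching stage were taken within NANOG-above cells and not over the whole stage as planned, a choice made after seeing the data.

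The members, the pathway and marker lists and the thresholds were chosen with earlier results of these data known. Named pathway genes are up to 4 per role with the largest difference past 1 log2 unit among genes with a mean FPKM of at least 1. Some genes that these rules name are not reported here. BMP7, BMPR1B, NOG and the cells H13 and HSL79 were named after their values were seen. A simulation with 16049 genes compared the early cells with a stand-in for hatching cells, made by shuffling the same early values within each gene. The right sign came back for 99 of 100 genes shifted by 1 log2 unit and for 99 of 100 shifted by 2. Shifted genes were drawn above an early mean FPKM that BMP2, BMP4, BMPR1A, BMPR2, SMAD1 and ID1 did not reach. The groups did not differ in depth or cell make-up, so the simulation says little of these members. Python 3.11.15, pandas 2.3.3, numpy 2.4.6, scipy 1.17.1 and matplotlib 3.10.9 were used.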

Additional observations from a re-analysis of the deposited data

How the results depend on the processing

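Of 60 member differences, 27 passed 1 log2 unit, and 10 of these passed it under every setting run. The counts of members past 1 log2 unit depended most on the pseudocount. With a pseudocount of 10 the members higher were 3 in hatching minus early, 2 in hatching minus late, 0 in late minus middle and 1 in the late SOX17-above minus NANOG-above difference. The members lower were then 0 in middle minus early and 0 in both differences between ranges, and the other pathway genes past 1 log2 unit numbered 0 in hatching minus early, 0 in hatching minus late and 7 between hatching ranges. With a pseudocount of 0.1, 3 members were higher in late minus middle, 2 lower in hatching minus early, 2 lower between late ranges, and 8 other pathway genes passed in hatching minus late. At 2 log2 units, 3 members were higher in hatching minus early and 2 in hatching minus late, 0 were lower between hatching ranges, and the other pathway genes numbered 3, 1 and 7 in hatching minus early, hatching minus late and between hatching ranges, where 6.99%, 2.39% and 20.3% of all genes passed in either direction.

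With the log2 of the mean FPKM, 2 members were lower in middle minus early, 4 higher in late minus middle, and 9 other pathway genes passed in hatching minus late; ID2 in hatching minus early was -0.0636, where E9 carries the early mean. With medians over cells, 8 other pathway genes passed in hatching minus early, and the range differences of BMP4 in late cells and of SMAD1 in hatching cells were 0. Medians also put below 1 log2 unit BMP2 (0.18) and BMP4 (0.19) in hatching minus early, BMP2 in late minus middle (0.08), BMP4 in hatching minus late (0.19) and BMPR2 between hatching ranges (0.99), and past it BMPR1A in hatching minus early (1.09), BAMBI in late minus middle (1.503), ID3 between late ranges (3.22) and SMAD5 between hatching ranges (1.56). With lower title numbers, 2 members were lower in middle minus early, 0 higher in late minus middle and 0 lower between hatching ranges, 10 other pathway genes passed in hatching minus late, and BMP4 between late ranges was -0.25. With higher title numbers, 0 members were lower in middle minus early and 0 between late ranges, 3 higher in late minus middle, and in hatching minus late 3 were higher and 1 lower, 8 other pathway genes passed and ID3 was -0.36. The hatching ranges have no value there, since no SOX17-above cell carries a higher number. In NANOG-above cells only, an alternative chosen after seeing the data, 0 members were higher in late minus middle and 8 other pathway genes passed in hatching minus late. The r of ID2 with NANOG in early cells was 0.15 with higher numbers, and that of BMP2 with NANOG was 0.0449 without E9, also chosen after seeing the data.

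With median-of-ratios scaling the median over all genes was -0.15 between hatching ranges, against -0.45 as deposited, -0.03 in hatching minus late, against -0.14, and -0.0038 in hatching minus early, against -0.12. The share of higher among all genes past 1 log2 unit was 44.7% between hatching ranges, against 29.7% as deposited, and 52.6% in hatching minus late, against 42.4%. No count of members or of other pathway genes moved by over 1.5 times under this scaling. No paired analysis was possible because the results come from no test and the title numbers do not pair cells across stages.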
